A study of Mus musculus with 5 samples.

Results

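The gene set described here holds 31 of the 27998 genes in the deposited count table, chosen by name as genes of glucose breakdown and of the response to low oxygen. It covers glucose transporters (Slc2a1, Slc2a3), hexokinases (Hk1, Hk2), phosphofructokinases (Pfkl, Pfkp), the other enzymes from glucose phosphate to pyruvate (Gpi1, Aldoa, Tpi1, Gapdh, Pgk1, Pgam1, Eno1, Pkm), lactate dehydrogenase A (Ldha), lactate transporters (Slc16a1, Slc16a3), the pathway activator Pfkfb3, the pyruvate dehydrogenase kinase Pdk1, and oxygen sensing and hypoxia genes (Hif1a, Egln1, Egln3, Bnip3, Vegfa, Ero1l, P4ha1, Ndrg1, Higd1a, Ankrd37, Bhlhe40, Mif). All 31 were found in the table and had counts.

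The counts come from live CD45+ immune cells of 3 mice. Each mouse gave 3 sorts, of its tumour, a draining lymph node (dLN) and a lymph node that does not drain the tumour (non-dLN). Mouse 1 had received nivolumab_mIgG1_D265A, mouse 2 nivolumab_mIgG1 and mouse 3 the isotype control MOPC21, where nivolumab is an antibody against the inhibitory T cell receptor PD-1. The labels used here give no strain, age, tumour line or dose. The 9 samples carried hashtag antibodies and were sequenced as 1 pool, and which hashtag marked which mouse or site was not found in the labels. They are called populations 1 to 9 after their hashtags, no comparison was set up between antibodies or sites, and no treatment had a second mouse. Where classes lay in different populations, a comparison of classes can also hold a difference between sites.

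After filtering, 21347 cells remained, of which 21094 carried a hashtag, with 2051 to 2550 cells and 9082690 to 31322375 unique molecular identifiers (UMIs, counted transcripts) per population. Cell classes were gated on marker genes, none of them in the gene set, and 13868 cells (65.7%) fell in 1 of 12 classes. The gates themselves set their defining markers apart, so the levels of these markers describe the classes and do not check them. C1qa stood at 5446 CPM (counts out of 1000000 UMIs) in macrophages and 63.3 CPM in monocytes. The 13 activated T cell markers summed to 24190 CPM in activated CD8 T cells and 916 CPM in naive CD8 T cells. C1qa, which lymphocytes should lack, stood at 26.4 CPM in activated CD8, 33.6 CPM in naive CD8 and 26.2 CPM in NK cells, which gauges the free RNA in those droplets. Levels below are UMIs summed over the cells of a class, given as CPM. Intervals are 95%, exact Poisson for levels and exact conditional binomial for ratios, and cover counting error only. With no group that holds replicates, the comparisons carry no test and no p-value.

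Glycolysis splits glucose into pyruvate and yields energy without oxygen, and lactate dehydrogenase with lactate export keeps it running. When oxygen falls, the EGLN prolyl hydroxylases no longer mark the transcription factor HIF-1α for destruction, and it then switches on many glycolysis genes together with genes such as Bnip3 and Vegfa. Activated T cells and inflammatory macrophages are known to raise glycolysis also where oxygen is present.

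HIF binds short sites around the letters ACGTG or GCGTG. These letters were searched on both strands of the 300 bases from 250 before to 50 after each transcription start (RefSeq, GRCm38.p6). Of the 31 genes, 28 had an entry in the promoter set used here and gave 38 promoters. Slc2a3, Ndrg1 and Bhlhe40 had none there. ACGTG or GCGTG stood in 31 of the 38 (81.6%), against 43.8% of all 32851 promoters, and 26 of the 28 genes had it in at least 1 promoter, against 46.7% of all 27025 genes. Promoters of the set were also richer in CG, with a median of 23.5 CG pairs and 65.2% G and C, against 7 CG pairs and 52.7% over all promoters. The palindrome CACGTG, which holds ACGTG on both strands, stood in 5 of the 38, against 7.15% of all. A match is a string of letters and not a shown binding site. The promoters of 6 genes are printed since these genes recur in the comparisons: the hypoxia genes Bnip3 and Ankrd37, which help to split cells in the last comparison, the lactate exporter Slc16a3, the enzymes Ldha and Pgk1, and Tpi1 as a promoter without a match. Each runs 5′ to 3′ on the gene's strand, and capitals mark ACGTG or GCGTG on either strand.
Bnip3 (chr7:138909457-138909756, minus strand): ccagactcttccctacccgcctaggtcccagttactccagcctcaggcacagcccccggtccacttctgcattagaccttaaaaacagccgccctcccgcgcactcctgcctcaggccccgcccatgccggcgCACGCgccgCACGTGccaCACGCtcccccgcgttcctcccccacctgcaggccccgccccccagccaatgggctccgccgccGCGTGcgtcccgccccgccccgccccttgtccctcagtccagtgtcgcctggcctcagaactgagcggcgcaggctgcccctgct
Ankrd37 (chr8:45999801-46000100, minus strand): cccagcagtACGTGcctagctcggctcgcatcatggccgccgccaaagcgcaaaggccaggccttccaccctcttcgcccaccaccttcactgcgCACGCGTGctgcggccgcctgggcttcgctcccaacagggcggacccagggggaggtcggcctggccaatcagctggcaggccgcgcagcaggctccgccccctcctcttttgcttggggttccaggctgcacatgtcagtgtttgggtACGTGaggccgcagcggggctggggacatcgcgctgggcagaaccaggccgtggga
Slc16a3 (chr11:120948817-120949116, plus strand): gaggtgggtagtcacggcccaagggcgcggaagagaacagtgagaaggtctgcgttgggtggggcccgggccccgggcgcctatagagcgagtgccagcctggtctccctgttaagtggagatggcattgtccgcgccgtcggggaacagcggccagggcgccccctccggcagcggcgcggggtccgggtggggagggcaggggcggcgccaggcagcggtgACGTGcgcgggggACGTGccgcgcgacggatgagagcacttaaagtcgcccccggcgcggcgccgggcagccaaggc
Ldha (chr7:46845554-46845853, plus strand): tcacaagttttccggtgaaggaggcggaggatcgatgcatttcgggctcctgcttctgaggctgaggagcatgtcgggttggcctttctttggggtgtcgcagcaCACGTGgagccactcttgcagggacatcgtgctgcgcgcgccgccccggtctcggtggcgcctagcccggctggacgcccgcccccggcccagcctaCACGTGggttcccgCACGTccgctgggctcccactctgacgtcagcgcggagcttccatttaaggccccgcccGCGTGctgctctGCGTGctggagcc
Pgk1 (chrX:106186850-106187149, plus strand): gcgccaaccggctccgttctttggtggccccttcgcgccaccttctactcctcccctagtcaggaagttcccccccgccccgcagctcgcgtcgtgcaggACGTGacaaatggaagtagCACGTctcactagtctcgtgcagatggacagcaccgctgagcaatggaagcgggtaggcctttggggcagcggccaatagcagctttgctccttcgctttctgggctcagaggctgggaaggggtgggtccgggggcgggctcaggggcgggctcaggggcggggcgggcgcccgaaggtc
Tpi1 (chr6:124814109-124814408, minus strand): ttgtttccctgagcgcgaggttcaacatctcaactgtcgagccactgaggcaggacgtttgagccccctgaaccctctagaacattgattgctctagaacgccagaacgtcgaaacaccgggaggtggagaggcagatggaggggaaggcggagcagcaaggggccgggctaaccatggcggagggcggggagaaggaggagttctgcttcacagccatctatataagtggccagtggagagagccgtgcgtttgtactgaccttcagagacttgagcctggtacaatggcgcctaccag

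The printed Ldha promoter held 7 matches, which include 2 CACGTG, and the Bnip3 promoter 5, which include 1 CACGTG. Each CACGTG counts as 2 matches, 1 on each strand. The other Ldha promoter had 2 matches and 0 CACGTG. Ankrd37 had 4 matches, and Slc16a3 and Pgk1 had 2 each. Tpi1 had 0 in this window, as had Gpi1.

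Across cell classes the genes followed several patterns. Among the 9 classes with at least 100 cells, 18 of the 31 genes had their highest level in monocytes, 6 in activated CD8 T cells (Slc2a3, Hk1, Hif1a, Egln1, Higd1a and Bhlhe40), 4 in macrophages (Gpi1, Aldoa, Gapdh and Ldha) and 1 each in germinal centre B cells (Mif), naive CD4 T cells (Pdk1) and naive CD8 T cells (Slc16a1). The summed UMIs of the 11 core enzymes (Gpi1, Pfkl, Pfkp, Aldoa, Tpi1, Gapdh, Pgk1, Pgam1, Eno1, Pkm and Ldha) came to 15792 CPM in monocytes, 15757 CPM in macrophages, 12358 CPM in activated CD8 T cells, 9440 CPM in germinal centre B cells, 8868 CPM in Tregs and 7014 CPM in NK cells. Naive CD4 T cells (3511 CPM), naive CD8 T cells (3313 CPM) and other B cells (3310 CPM) lay close together at the low end. Monocytes and macrophages are neighbours in this order and overlapped by population, with 12004, 13079 and 18144 CPM in macrophages of populations 1, 4 and 7 and 9488, 17066 and 16105 CPM in monocytes of the same populations.

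**Figure D1:**
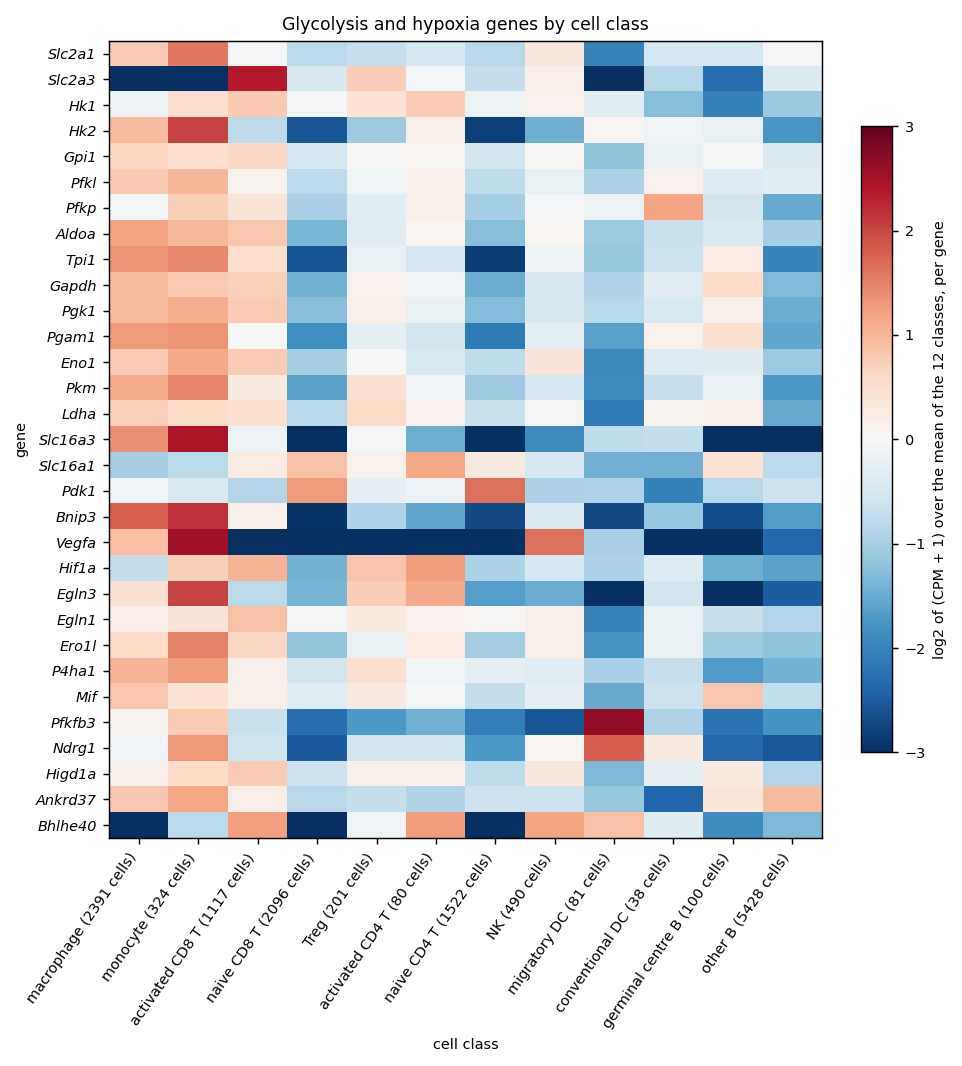
Each row is a gene and each column a cell class with its number of cells. Colour gives log2 of (CPM + 1) over the gene's mean across the 12 classes, cut at −3 and 3, so a row compares classes and colours do not compare genes. The enzymes from Gpi1 to Ldha are high in macrophages, monocytes and activated CD8 T cells, while Slc2a3, Vegfa, Pfkfb3, Pdk1 and Bhlhe40 each have a pattern of their own.

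How closely each gene followed the core enzymes was described over 40 points (a class in a population with at least 20 cells, 9 classes), as the correlation of log2(CPM + 5) with the log2 sum of the other core enzymes. The points share 1 pool, and points of a population share its cells' depth. Within the pathway Pgk1 (Pearson's r 0.98, Spearman's rho 0.94), Tpi1 (r 0.97, rho 0.87) and Gapdh (r 0.95, rho 0.88) had the highest r. By rho, Pkm (0.91) and Eno1 (0.90) lay above Tpi1 and Gapdh. Of the genes outside the core, Higd1a (r 0.85, rho 0.81), a small mitochondrial protein gene, and Ero1l (r 0.83, rho 0.72), an oxidase of the endoplasmic reticulum, had the highest r, while Mif (0.77) and Hk2 (0.74) had a higher rho than Ero1l. Slc2a3 (r -0.09, rho -0.15) and Slc16a1 (r -0.21, rho -0.17) lay near 0. Pdk1, the pyruvate dehydrogenase kinase gene, ran the other way (r -0.56, rho -0.37).

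Population 7 stood apart in 2 classes, activated CD8 T cells and macrophages. In activated CD8 T cells it was the highest of the 3 populations with such cells for 26 of the 31 genes and all 11 core enzymes, and in macrophages for 27 of the 31 and all 11. In monocytes it was highest for 14 of the 31 and 5 of the 11, with population 4 highest for 13 and 6. Population 1 was the lowest for 25 of the 31 genes in activated CD8 T cells and for 23 in monocytes. In NK cells population 7 was highest for 17 of the 31 and 8 of the 11. The share of all genes highest or lowest in a population is not given here, so these counts are not read as particular to the set. Median UMIs per activated CD8 T cell were 6774, 6705 and 8473 in populations 1, 4 and 7, and the part of depth in the order was not tested. The order cannot be read as an effect of an antibody, since no population could be assigned to one.

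At the steps where 2 genes of the set serve the same reaction, classes differed in which gene was counted. Slc2a3, the high-affinity glucose transporter, made up 55.9% (53.5 to 58.2, exact Clopper-Pearson) of the UMIs of Slc2a1 and Slc2a3 in activated CD8 T cells, against 21.9% (19.0 to 25.0) in naive CD8 T cells, and 38.2% (30.4 to 46.4) in Tregs, against 19.5% (15.9 to 23.5) in naive CD4 T cells. In macrophages it made up 0.668% (46 of 6882 UMIs) and in monocytes 0.485% (4 of 825), so nearly all UMIs of this pair were Slc2a1 there. Slc2a6, a glucose transporter outside the set, was also counted, at 54.8 CPM in macrophages and 55.1 CPM in monocytes. Hk2, the inducible hexokinase, made up 43.8% of the UMIs of Hk1 and Hk2 in macrophages, 50.9% in monocytes and 56.5% (26 of 46) in germinal centre B cells, but 10.1% in activated CD8 T cells and 4.33% in naive ones. Hk3, a hexokinase outside the set, was also a myeloid gene, at 211 CPM in macrophages, 220 CPM in monocytes and 2.10 CPM in activated CD8 T cells.

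The lactate transporters differed between activated and naive T cells. Slc16a3, the exporter MCT4, made up 88.8% (86.1 to 91.1) of the UMIs of Slc16a1 and Slc16a3 in activated CD8 T cells, against 17.5% (12.2 to 23.9) in naive CD8 T cells, and 90.4% (83.8 to 94.9) in Tregs, against 29.6% (20.0 to 40.8) in naive CD4 T cells. It was 98.5% in macrophages and 99.1% in monocytes, and 20.0% (4 of 20 UMIs) in germinal centre B cells, against 39.3% (42 of 107 UMIs) in other B cells. Pfkp gave 52.9 to 84.1% of the UMIs of Pfkl and Pfkp in the 12 classes, with no class below 50% in the pooled counts. Egln3 gave 18.3% of the UMIs of Egln1 and Egln3 in macrophages, 38.1% in monocytes and 4.92% in activated CD8 T cells. In Tregs it gave 20.7% (13.8 to 29.0, 25 of 121 UMIs). Tregs of populations 1, 3 and 8, which alone held enough UMIs of the pair, had lower shares of 3.57, 9.52 and 13.6%. A share compares counted UMIs, whose capture can differ between genes, so only its change between classes is read.

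**Figure D2:**
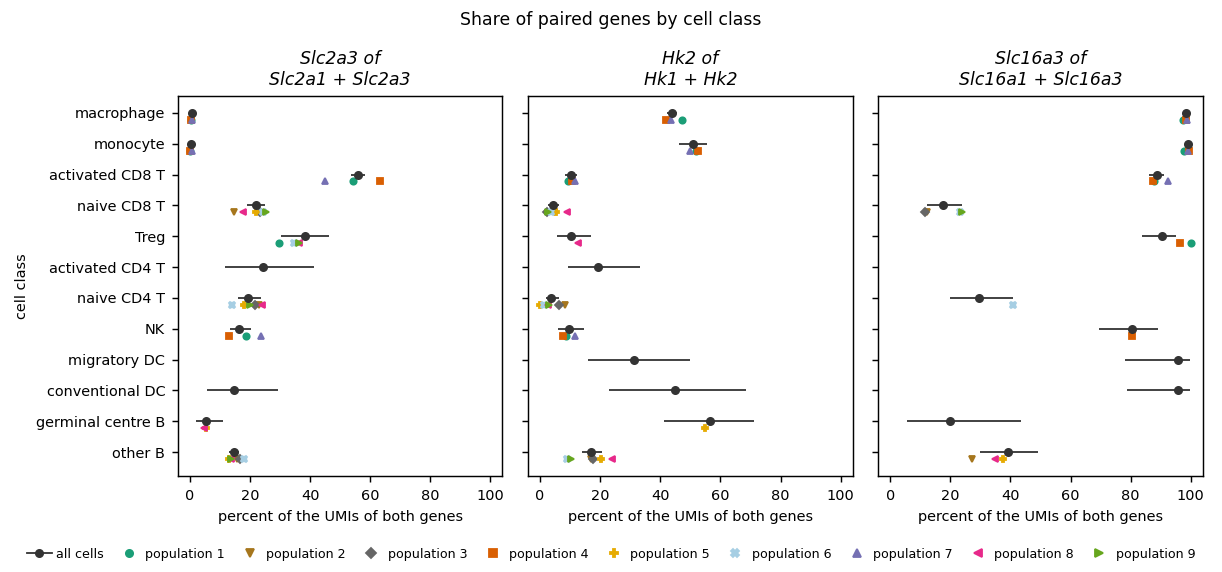
Each panel gives, for a pair of genes, the percent of the pair's UMIs that came from the gene named first, by cell class. Dark points are all cells of a class with their 95% exact interval, and small coloured symbols are single populations with at least 20 cells and 20 UMIs of the pair. Slc2a3 is highest in activated CD8 T cells at 55.9%, Hk2 in germinal centre B cells at 56.5%, and Slc16a3 lies at 80.6% or above in activated CD8 T, Treg, NK and myeloid classes.

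Activated CD8 T cells (1117 cells, nearly all in populations 1, 4 and 7) were set against naive CD8 T cells (2096 cells, nearly all in populations 2, 3, 5, 6, 8 and 9), since activation is the textbook switch to glycolysis. A gene was called where the ratio of pooled CPM was at least 2-fold either way, its interval left out 1 and both classes together held at least 50 UMIs. Of the 31 genes, 21 were higher in activated cells, 1 was lower and 9 were neither. Over all 10104 genes measured, 15.3% were called higher and 10.3% lower. For all 22 the populations of activated cells did not overlap those of naive cells, against 13.7% of all genes higher and 9.05% lower without overlap. The median log2 ratio was 1.64 over the set and 0.10 over all genes.

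The glucose transporter Slc2a3 stood at 107, 157 and 85.3 CPM in activated CD8 T cells of populations 1, 4 and 7, and at 9.47, 14.9 and 19.0 CPM (lowest, median and highest of 6 populations) in naive CD8 T cells. All activated populations were above all naive ones, and the pooled ratio was 7.63-fold (6.46 to 9.05). Slc2a1 had 90.0, 90.9 and 105 CPM in activated cells and 47.8, 53.9 and 59.4 CPM in naive cells, which did not overlap but stayed under the 2-fold call (1.68, 1.51 to 1.88). Of the hexokinases, Hk2 was 4.49-fold higher (2.86 to 7.31) on 90 and 25 UMIs in activated and naive cells, and Hk1 had a ratio of 1.80.

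The enzymes from hexose phosphate to lactate were higher together, except Pfkl (ratio 1.89). Tpi1, which interconverts the triose phosphates, was furthest apart, with 345, 427 and 800 CPM in activated cells of populations 1, 4 and 7 and 31.5, 51.0 and 60.0 CPM in naive cells (lowest, median and highest). Its ratio was 8.95 (8.17 to 9.82). Gapdh had 4578, 5244 and 7283 CPM in activated cells and 1109, 1182 and 1395 CPM in naive cells, a ratio of 4.28 (4.20 to 4.37). The ratios of Aldoa (4.59), Pgk1 (4.14), Pkm (3.70), Pgam1 (3.64), Eno1 (3.39), Pfkp (2.57), Ldha (2.52) and Gpi1 (2.18) followed. Pfkfb3, whose product makes the activator of phosphofructokinase, was 3.11-fold higher. Gapdh, Eno1, Ldha and Mif have near-identical processed copies in the mouse genome, and the counting of reads shared with them is not described in the labels; Eno1b, the copy of Eno1 in the table, stood at 13.2 CPM in activated and 3.55 CPM in naive CD8 T cells.

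The lactate transporters and Pdk1 parted from one another. Slc16a3 had 57.3, 62.2 and 106 CPM in activated cells of populations 1, 4 and 7 and 1.54, 2.70 and 4.46 CPM in naive cells, a ratio of 22.9 (16 to 34.0). Slc16a1, the transporter MCT1, had 8.02, 9.05 and 8.73 CPM in activated cells and 6.69, 13.7 and 18.3 CPM in naive cells, which overlapped (ratio 0.62). Pdk1 was the single gene lower in activated cells, at 12.4, 11.8 and 23.5 CPM in populations 1, 4 and 7, against 57.4, 66 and 75.9 CPM in naive cells, which is 4.69-fold lower.

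Of the hypoxia genes, Bhlhe40, a transcriptional repressor that T cell receptor signals also induce, was furthest apart, at 819, 858 and 767 CPM in activated cells of populations 1, 4 and 7, against 17.0, 19.7 and 42.1 CPM in naive cells (36.6-fold, 32.2 to 41.9). Hif1a, which encodes HIF-1α, had 439, 468 and 442 CPM in activated cells and 70.1, 83.6 and 89.6 CPM in naive cells (5.43-fold, 5.04 to 5.85). Bnip3, a mitophagy gene, had 32.5, 51.2 and 96.7 CPM in activated cells and 1.91, 4.20 and 7.81 CPM in naive cells (10.0-fold, 7.51 to 13.7). Ndrg1 (4.17), Ero1l (3.62), Higd1a (2.65) and Ankrd37 (2.18) were also called higher. Ankrd37 fell short of 2-fold without population 7 (log2 ratio 0.95) or 9 (0.98), and so did Ankrd37 (0.82) and Gpi1 (0.81) with mitochondrial, ribosomal protein and a few other abundant genes left out of the total. Egln1 (1.91), Egln3 (1.65), P4ha1 (1.62), Mif (1.39) and Vegfa (0.78) were not. Vegfa, the vessel growth factor, had only 23 UMIs in all activated CD8 T cells (2.68 CPM) and 37 in all naive ones (3.46 CPM).

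**Figure D3:**
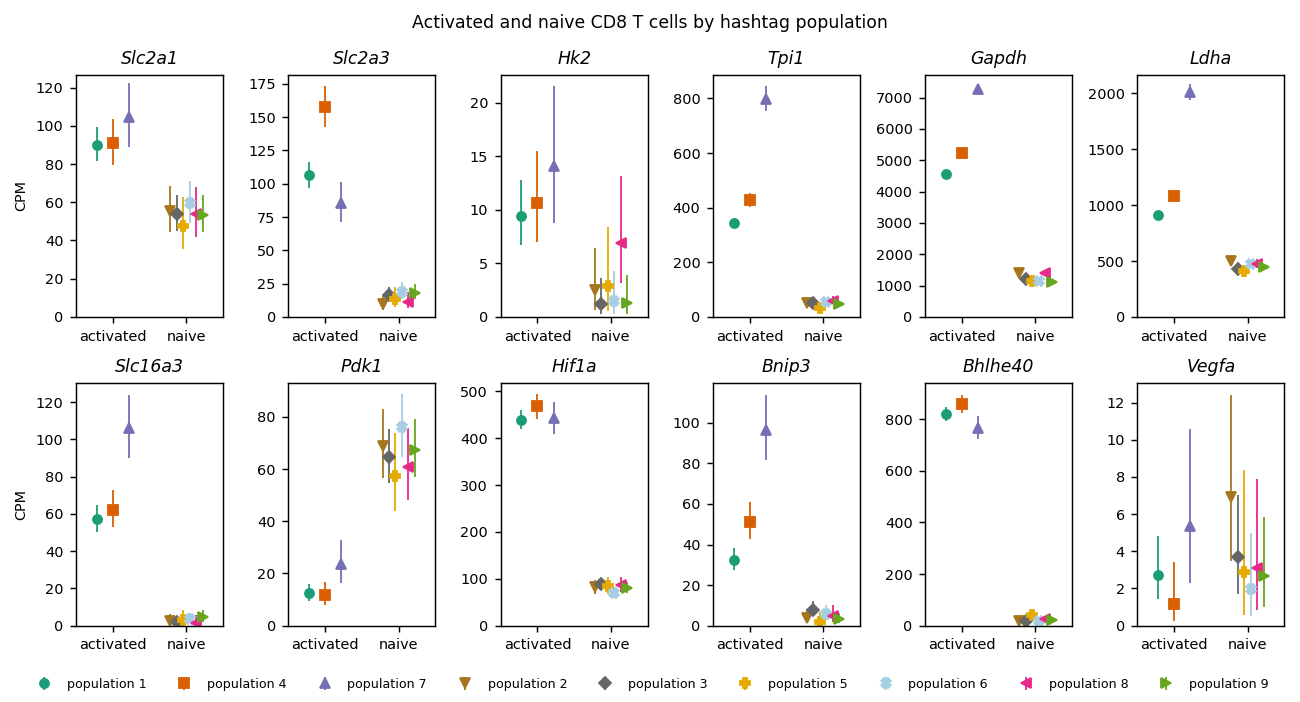
Each panel gives 1 gene's CPM in activated (left) and naive (right) CD8 T cells, with 1 point per hashtag population and its 95% exact Poisson interval. Axes start at 0 and differ between panels. The 3 activated populations lie above all 6 naive ones for Slc2a1, Slc2a3, Hk2, Tpi1, Gapdh, Ldha, Slc16a3, Hif1a, Bnip3 and Bhlhe40, below them for Pdk1, and overlap them for Vegfa.

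Genes of the same pathways outside the set were read from 4 further lists, with Pfkfb4 on both the glycolysis and the HIF list and counted in each. Of 14 measured further glycolysis genes, 3 were higher (Aldoc 29.5-fold, Slc2a8 3.89-fold, Galm 2.56-fold) and 3 lower (Ldhb 5.69-fold, Adpgk 2.36-fold, Pfkfb4 2.14-fold), which puts the A and B subunits of lactate dehydrogenase on opposite sides. Of 9 pyruvate genes, Bsg, which carries the lactate transporters to the membrane, was 2.67-fold and Pdk3 2.11-fold higher. Of 7 pentose phosphate genes, Rpe was 2.16-fold higher. Of 26 further HIF genes, 11 were higher, led by Mt2 (80.3-fold, 27.1 to 393, on 193 and 3 UMIs), Mt1 (48.2-fold) and Plod2 (32.0-fold), and 5 lower, led by Myc (2.73-fold), Cited2 (2.65-fold) and Kdm4b (2.14-fold). Class cannot be told apart here from sample, and so from site, since the 2 classes met in no population at 20 cells each. Activated and naive cells also differed in cycling cells (9.04 and 0.573%) and median UMIs (6860 and 4896), whose part was not tested.

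Macrophages and monocytes can be set against each other within populations 1, 4 and 7. Of the 31 genes, 0 were called higher in macrophages and 7 lower (Bhlhe40, Egln3, Vegfa, Hif1a, Ndrg1, Hk2 and Slc16a3), and each of the 7 was lower in all 3 populations. Over 11090 genes, 16.4% were called higher and 6.89% lower, with 14.8% higher and 6.08% lower in each population as well, and the median log2 ratio was -0.37 over the set and 0.19 over all genes. Bhlhe40 stood at 25.4, 17.9 and 34.5 CPM in macrophages of populations 1, 4 and 7, against 187, 177 and 208 CPM in monocytes (6.92-fold lower). Vegfa had 139, 73.3 and 96.3 CPM in macrophages and 313, 310 and 287 CPM in monocytes (3.07-fold lower). Hif1a had 169, 177 and 100 CPM in macrophages and 343, 467 and 321 CPM in monocytes (2.73-fold lower). For these 3 genes every monocyte population lay above every macrophage population, and so it was for Hk2 and Ndrg1 of the 7. The share of all genes without overlap is not given for this comparison, so this is not read as particular to the set.

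Egln3, an oxygen sensor that HIF itself induces, was 3.14-fold lower in macrophages, on 533 UMIs against 114 in monocytes, and Ndrg1 2.70-fold lower. Slc16a3, at 123, 150 and 232 CPM in macrophages of populations 1, 4 and 7 and 232, 482 and 405 CPM in monocytes, was 2.14-fold lower, as was Hk2, at 42.9, 30.1 and 39.7 CPM in macrophages and 70.6, 89.6 and 76.8 CPM in monocytes. Without population 4, Hk2 (log2 ratio -0.91) and Slc16a3 (-0.86) no longer passed 2-fold. The enzymes lay near each other: Gapdh had a ratio of 1.14 pooled and 0.86 to 1.51 by population, Ldha 1.10, Aldoa 1.16, Tpi1 0.93 and Pgk1 0.91. Populations went different ways for Gapdh, Aldoa, Tpi1, Pgk1, Ldha and Mif, whose intervals lay above 1 in at least 1 population and below 1 in population 4. Monocytes of population 1 were only 27 cells.

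Macrophages held 405 cycling cells (16.9%) and monocytes 0 of 324, which allows a share of up to 0.926%. Median UMIs were 17052 in macrophages and 8434.5 in monocytes, and the part of either in the ratios was not tested. Of 31 further HIF genes, 5 were higher in macrophages and 5 lower. Mt2 (987 UMIs against 0) and Bhlhe41 had no UMI in monocytes and Mt1 was 4.34-fold higher, while Ddit4 (4.42-fold), Hilpda (4.38-fold) and Nos2 (2.74-fold) were lower. Hilpda (0.073 to 1.21) and Nos2 (0.24 to 1.21) had ratios above 1 in 1 of the 3 populations, and 3 of the 5 were lower in each. Of 17 further glycolysis genes, Slc2a8 (3.49-fold), Tigar (2.38-fold) and Aldoc (2.09-fold) were higher and Ldhb (2.33-fold) lower. Of 9 pyruvate genes Pdk3 was 2.12-fold lower, and 0 of 7 pentose phosphate genes were called.

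Macrophages were also set against activated CD8 T cells, with 20 or more of both in populations 1, 4 and 7. Of the 31 genes, 6 were higher in macrophages and 4 lower, against 19.3% of 11539 genes higher and 18.0% lower (19.0% and 17.7% in each population as well), so the share called was not above that of all genes. The median log2 ratio was 0.51 over the set and -0.17 over all genes. Of the core enzymes Pgam1 alone was called, 2.40-fold higher pooled and 1.71 to 2.21 within populations, under 2-fold with populations weighted equally (log2 ratio 0.97). Gapdh had a ratio of 1.21 pooled and 1.00 to 1.06 within populations. Eno1 (1.01 pooled, 0.73 to 0.90 within), Pgk1 (1.14 pooled, 0.82 to 0.97 within) and Gpi1 (1.02 pooled, 0.81 to 0.96 within) lay on the other side of 1 within every population. Population 7 held 1261 of the 2391 macrophages and 152 of the 1117 activated CD8 T cells, so it weighed more in the pooled macrophages.

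Vegfa had 139, 73.3 and 96.3 CPM in macrophages of populations 1, 4 and 7 and 2.75, 1.18 and 5.37 CPM in activated CD8 T cells (35.6-fold higher). Hk2 (3.55-fold), Bnip3 (3.13-fold), Slc16a3 (2.89-fold) and Egln3 (2.72-fold) were also higher, Egln3 in 2 of 3 populations and at a log2 ratio of 0.78 without population 7 or 0.98 with populations weighted equally. Slc2a3 went the other way, at 0.686, 0.492 and 1.48 CPM in macrophages of populations 1, 4 and 7 and 107, 157 and 85.3 CPM in activated CD8 T cells (105-fold lower). Bhlhe40 (29.0-fold), Hif1a (3.34-fold) and Slc16a1 (2.78-fold) were lower in macrophages too.

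Outside the set, Arg1 (145-fold) was higher in macrophages, P4ha2 (221 UMIs) and Adm (62 UMIs) had no UMI in activated CD8 T cells, and Plod2 (123-fold), Epas1 (103-fold) and Rora (38.6-fold) were lower. In all, 13 of 33 further HIF genes were higher and 7 lower. Of 17 further glycolysis genes 5 were higher, led by Hk3 (101-fold), Slc2a6 (93.9-fold) and Pfkfb4 (19.4-fold), and 2 lower, Bpgm (2.18-fold) and Galm (2.02-fold). Of 7 pentose phosphate genes, Pgd (3.78-fold), G6pdx (3.43-fold) and Tkt (2.12-fold) led the 4 higher, and Rpia was 2.39-fold lower. Of 9 pyruvate genes 0 were called.

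**Figure D4:**
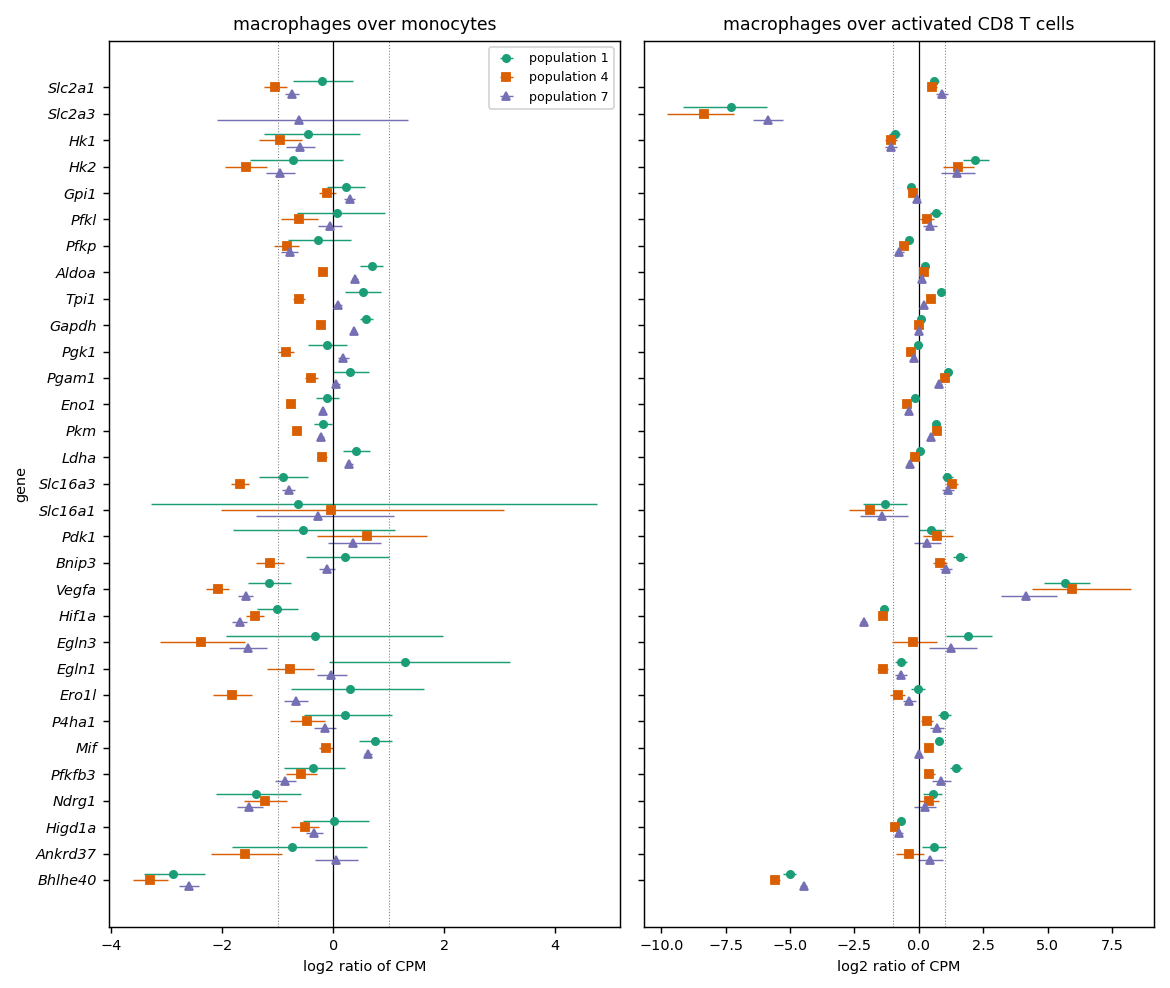
Points give the log2 ratio of CPM within populations 1, 4 and 7 with 95% intervals, for macrophages over monocytes (left) and macrophages over activated CD8 T cells (right). Solid lines mark equal levels and dotted lines 2-fold. Ratios against a level of 0, or on under 20 UMIs of both classes together, are not drawn. On the left Bhlhe40, Vegfa, Hif1a and Ndrg1 lie at or beyond 2-fold lower in all 3 populations. On the right Vegfa lies far above and Slc2a3 and Bhlhe40 far below 0 while Gapdh lies near 0.

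Tregs were set against naive CD4 T cells, with 20 or more of both in populations 2, 3, 6, 8 and 9. Of 28 genes with enough UMIs, 12 were higher in Tregs (9 of them in each of the 5 populations) and 1 lower, against 14.7% of 8761 genes higher and 5.65% lower (10.6% higher and 4.35% lower in each population as well). The median log2 ratio was 0.93 over the set and 0.21 over all genes. Slc16a3 had 21.8, 35.9, 22.3, 18.7 and 19.7 CPM (3 to 8 UMIs each) in Tregs of these 5 populations and 5.04, 2.94, 6.00, 2.57 and 0.659 CPM in naive CD4 T cells. Tregs of populations 1 and 4, which held fewer than 20 naive CD4 T cells, had 229 and 259 CPM, and brought the pooled ratio to 19.9 (12.7 to 32.3). Populations weighted equally among the 5 gave a log2 ratio of 3.08, against 4.31 pooled.

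Hif1a followed the same order, with 744 and 1047 CPM in Tregs of populations 1 and 4, 227 to 428 CPM in Tregs of the other 5, and 94.8 to 126 CPM in naive CD4 T cells (3.51-fold). Bnip3 was called only in the pooled counts (3.89-fold), with 78.0 and 39.9 CPM in Tregs of populations 1 and 4 and 0 to 12.5 CPM in Tregs of the others, and its ratio passed 1 in 2 of 5 populations. Bhlhe40 was 21.4-fold higher (7.86 to 45.8 by population), Tpi1 6.30-fold (3.54 to 7.82), Pgam1 3.65-fold, Gapdh 3.08-fold, Pkm 2.95-fold, Pgk1 2.76-fold and Ldha 2.35-fold. Slc2a3 (2.84-fold) and Ndrg1 (2.37-fold) were above 1 in 4 of 5 populations. Pdk1 was 3.86-fold lower, as it was in activated CD8 T cells, and lay under naive CD4 T cells in each of the 5 populations.

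Ldha passed under 2-fold without cycling cells (log2 ratio 0.87) or with mitochondrial, ribosomal and a few other genes left out of the total (0.996), and 14.9% of Tregs were cycling, against 0 of 1522 naive CD4 T cells, which allows a share of up to 0.197%. Outside the set, 2 of 9 further glycolysis genes (Eno3 8.82-fold, Galm 8.63-fold), 2 of 9 pyruvate genes (Pdk3 2.35-fold, Bsg 2.30-fold), 2 of 7 pentose phosphate genes (Tkt 2.46-fold, Rpia 2.16-fold) and 5 of 19 further HIF genes were higher, the last led by Mt1 (22.6-fold), Rora (17.6-fold) and Ddit4 (5.71-fold). Of these 5, 2 were higher in each of the 5 shared populations: within them Ddit4 had ratios of 0.93 to 2.69, all below the pooled one, Mt1 of 0.87 to 19.4 and Hilpda of 0.20 to 1.80, above 1 in 2 of them. Rpia was above 1 in 4 of 5. None of these lists had a gene called lower.

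Germinal centre B cells (100 cells, the dividing B cells of an immune response) were set against 5428 other B cells of all populations. Populations 2, 5 and 8 held 20 or more of both. Of 29 genes, 10 were higher and 3 lower, against 13.5% of 10097 genes higher and 17.1% lower, and all 13 pointed the same way in each population, as did 13.1% of all genes higher and 16.7% lower. The median log2 ratio was 0.23 over the set and -0.09 over all genes. Tpi1 had 308, 350 and 422 CPM in germinal centre B cells of populations 2, 5 and 8 and 71.8, 84.5 and 81.9 CPM in other B cells (4.78-fold, 4.34 to 5.27). Gapdh had 4215, 4884 and 5401 CPM in germinal centre B cells and 1182, 1433 and 1484 CPM in other B cells (3.77-fold). Mif, a cytokine, had 677, 928 and 1203 CPM in germinal centre B cells and 326, 349 and 358 CPM in other B cells (3.01-fold). None of these populations overlapped, but the share of all genes without overlap is not given for this comparison.

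Pgam1 (4.16-fold), Hk2 (3.24-fold), Ldha (3.23-fold), Pgk1 (3.13-fold), Pkm (2.80-fold), Slc16a1 (2.70-fold) and Higd1a (2.28-fold) were also higher in germinal centre B cells. Slc2a3 (6 UMIs, 4.45-fold), Bnip3 (10 UMIs, 2.13-fold) and Vegfa (2 UMIs, ratio 0.14, 0.016 to 0.50) were lower, and Hif1a had a ratio of 1.10. Of the germinal centre B cells 61% were cycling, against 0.424% of other B cells. With cycling cells left out, 7 genes were higher and 0 lower, and Pkm (log2 ratio 0.69), Mif (0.71), Higd1a (0.76) and Slc16a1 (0.68) no longer passed. Of 22 further HIF genes 1 was higher (Cited2, 2.63-fold) and 10 lower, which include Arg1 (1 UMI, ratio 0.084, 0.0021 to 0.47), Bhlhe41 (1 UMI, ratio 0.086, 0.0022 to 0.49) and Mxi1 (2 UMIs, ratio 0.11, 0.013 to 0.40). Myeloid transcripts went different ways. C1qa stood at 10.4 CPM in germinal centre B cells and 54.1 CPM in other B cells. Lyz2 stood at 19.0 CPM in germinal centre B cells and 76.4 CPM in other B cells. The summed monocyte markers were lower in germinal centre B cells, but the summed macrophage markers were not lower throughout. Of the 10 macrophage markers 9 had a UMI in germinal centre B cells, all but Mrc1, and all 10 in other B cells, and the list summed to 242 to 562 CPM in germinal centre B cells and 425 to 457 CPM in other B cells of populations 2, 5 and 8. Of the 11 monocyte markers 6 had a UMI in germinal centre B cells, with Vcan, F10, Hp, Ifitm6 and F13a1 at 0, and all 11 in other B cells, and the list summed to 19.3 to 184 CPM in germinal centre B cells and 638 to 804 CPM in other B cells of these populations. The part of these transcripts in the genes called lower was not tested. Of 13 further glycolysis genes Bpgm was 2.76-fold higher, and Pfkfb4 (5.88-fold) and Aldoc (4.17-fold) were lower. Tkt (2.81-fold) and Pgd (2.65-fold) of 7 pentose phosphate genes were higher. Of 9 pyruvate genes Pdk3 was higher (3.07-fold) and Pdk2 lower, with no UMI in germinal centre B cells.

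Cycling and resting cells were also compared within a class. Cycling activated CD8 T cells (101 cells) were set against 1016 non-cycling ones, and of 29 genes 1 was higher, Slc16a1 (2.35-fold on 24 and 48 UMIs), and 0 lower, against 7.82% of 8811 genes higher and 3.3% lower (7.46% and 3.01% in each population as well). The count was 0 without population 1, 0 without population 4 and 3 without population 7. Ldha had a ratio of 1.51 pooled and 1.26 to 1.40 within populations, and Tpi1 1.47 pooled and 0.95 to 1.43 within. Bhlhe40 was 1.78-fold lower, short of the call but below 1 in all 3 populations, with 472, 427 and 590 CPM in cycling cells of populations 1, 4 and 7 and 873, 928 and 847 CPM in non-cycling ones. Outside the set, Aldoc (2.81-fold) and Epas1 (2.40-fold) were lower in cycling cells.

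Cycling macrophages (405 cells) were set against 1986 non-cycling ones. Of 30 genes, 0 were higher and 3 lower, against 5.89% of 10977 genes higher and 2.05% lower (5.58% and 1.81% in each population as well). Vegfa had 33.4, 33.1 and 51.2 CPM in cycling macrophages of populations 1, 4 and 7 and 157, 82.2 and 112 CPM in non-cycling ones (2.44-fold lower). Egln3 was 2.37-fold lower and Ndrg1 2.10-fold lower, Ndrg1 not without population 7 (log2 ratio -0.67) or with populations weighted equally (-0.82). The populations of the 2 states did not overlap for Vegfa, but the share of all genes without overlap is not given for this comparison. The median log2 ratio was -0.24 over the set and 0.03 over all genes. Of the core enzymes Gapdh (1.05), Ldha (0.98) and Tpi1 (0.96) had pooled ratios near 1. By population, the interval of Gapdh lay above 1 in 2 and below 1 in 1. That of Tpi1 lay below 1 in 2 populations and that of Ldha in 1. Population 7 had the highest share of cycling macrophages (20.1%, against 11.2 and 14.3% in populations 1 and 4), so it weighed more in the pooled cycling cells. Gpi1 (0.88), Pfkl (0.82), Aldoa (0.76) and Pkm (0.93) had intervals below 1 in all 3 populations. So had Vegfa, Hk2, Slc16a3, Hif1a, Bnip3, Ero1l, Mif and Bhlhe40 outside the core. The share of all genes with such intervals, which ask for no fold, is not given here. The list is therefore not read as particular to the set. Of 31 further HIF genes 5 were lower, led by Hmox1 (2.70-fold), Nos2 (2.61-fold) and Adm (2.59-fold), and of 9 pyruvate genes Pdk2 was 2.43-fold lower, though above 1 in 1 of 3 populations.

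The last comparison asked whether glycolysis genes went with HIF target genes cell by cell. Each cell was thinned to 3000 UMIs, and cells with at least 1 UMI of 10 hypoxia genes (Bnip3, Egln3, Egln1, Ndrg1, Ankrd37, Higd1a, Ero1l, P4ha1, Pdk1 and Vegfa) were set against cells with none. Those 10 genes made the split and are not read; 18 glycolysis genes are, with a call at 1.5-fold. In macrophages (1816 positive and 554 negative cells) 10 of 16 measured glycolysis genes were higher and 0 lower, against 2.37% of 8553 genes higher and 1.81% lower (2.02% and 1.34% in each population as well). All 10 were higher in each of the 3 populations. Slc16a3 led (2.39-fold, 2.01 to 2.86), followed by Pfkl (1.98), Pgk1 (1.91), Tpi1 (1.89), Slc2a1 (1.78), Pgam1 (1.75), Hk2 (1.67), Ldha (1.62), Eno1 (1.52) and Aldoa (1.51). The median log2 ratio of the 16 was 0.65, against -0.01 over all genes.

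Monocytes (258 positive and 53 negative cells) showed 14 of 16 higher and 0 lower, against 8.27% of 2865 genes higher and 6.21% lower. Tpi1 was 4.53-fold higher (3.19 to 6.63), Slc16a3 3.78-fold, Aldoa 3.23-fold, Pgk1 3.05-fold, Gapdh 2.89-fold and Ldha 2.72-fold, and Pfkl 6.98-fold on 102 UMIs in positive and 3 in negative cells (2.32 to 34.4). Population 7 alone held 20 cells of both kinds. In activated CD8 T cells (745 positive and 291 negative cells) 6 of 16 were higher and 0 lower, against 1.88% of 6539 genes higher and 1.62% lower (1.5% and 0.948% in each population as well). They were Slc16a3 (2.43-fold, 1.60 to 3.84), Tpi1 (2.05), Pgam1 (1.64), Pfkl (1.58), Pfkp (1.55) and Aldoa (1.52), while Eno1 (1.499), Slc2a1 (1.49) and Ldha (1.48) lay just under the call. Each of the 6 was higher in all 3 populations. Of the glucose transporters, Slc2a3 had a ratio of 1.08 in activated CD8 T cells and 3 and 1 UMIs in positive and negative macrophages.

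Of the 3 genes outside both lists, Mif was higher in positive macrophages (1.72-fold), monocytes (4.62-fold) and activated CD8 T cells (1.56-fold). Hif1a itself had ratios of 1.17, 1.20 and 1.02 in these classes and was not called. Bhlhe40 was called in macrophages (2.32-fold) and not in monocytes (0.87) or activated CD8 T cells (1.10). Across bins of 0, 1, 2, 3, 4 and 5 or more HIF target UMIs, mean glycolysis UMIs per 3000 were 33.5, 37.5, 44.9, 51.5, 59.7 and 77.0 in macrophages. They were 20.3, 28.5, 43.8, 39.8, 63.2 and 76.1 in monocytes, and 26.7, 29.8, 34.5, 44.8, 53.2 and 73.6 in activated CD8 T cells. Activated CD8 T cells of population 7 began higher, at 43.8, 43.5 and 43.8 in the first 3 bins, and reached 86.0 in the last.

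Positive and negative cells had median UMIs before thinning of 17145 and 17115 in macrophages, 8863.5 and 7683 in monocytes and 7047 and 7270 in activated CD8 T cells. Cycling cells made up 16.3% of positive and 19.7% of negative macrophages and 9.80% of positive and 9.62% of negative activated CD8 T cells. The number of genes called in activated CD8 T cells rested on the draw of the thinning, with 6 to 9 in 5 other draws, and on the cut, with 10 at 2 UMIs and 13 at 4 UMIs. In macrophages 5 other draws gave 9 to 12 and in monocytes 12 to 13.

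**Figure D5:**
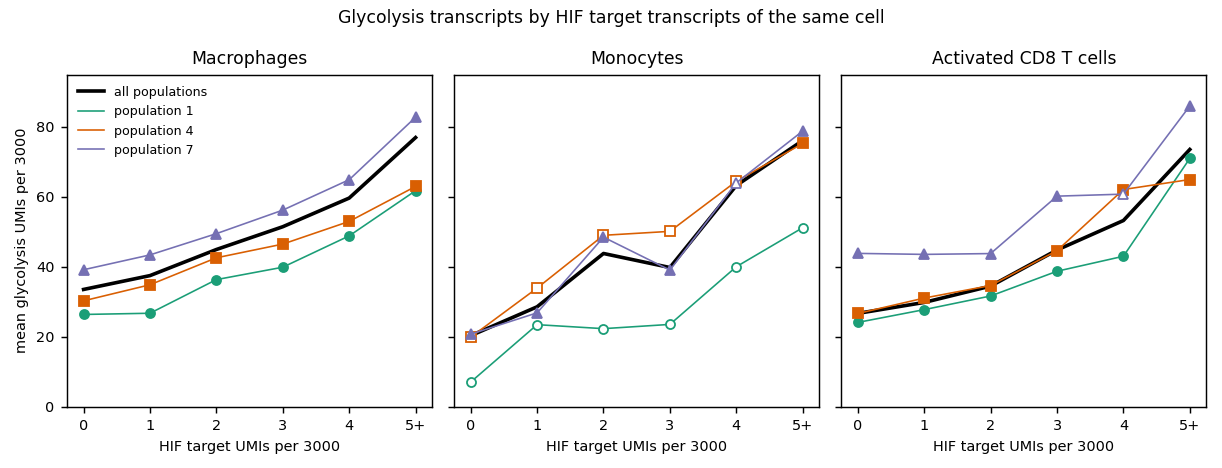
Mean glycolysis UMIs (18 genes, y axis) per cell thinned to 3000 UMIs, by that cell's UMIs of the 10 HIF target genes (x axis), in macrophages, monocytes and activated CD8 T cells. Black lines are all populations and coloured lines populations 1, 4 and 7, with open symbols for bins of under 20 cells. The black lines begin at 33.5, 20.3 and 26.7 at 0 HIF target UMIs and end at 77.0, 76.1 and 73.6 at 5 or more.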

How the data were processed

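The deposited table holds UMI counts per gene and cell, not normalized, which the authors made with Cell Ranger 8.0.1 on mm10, per the submitters' processing notes; 4 gene-expression libraries and 1 hashtag library came from 1 pool. Of 21624 barcodes, those under 500 UMIs, under 200 genes or over 20% mitochondrial UMIs were left out, which removed 93, and Scrublet (expected rate 8%) marked 184 more as doublets. A cell was given the hashtag with the most UMIs where it had at least 3 times the next, which left 253 cells without one. Hashtag numbers follow the order of the antibody rows. No barcode was listed more than once.

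Cells were gated by how many markers of a class had a UMI; thresholds were set after the marker distributions were seen, 7226 cells fell in no gate, and 7 cells met 2 gates. Counts were summed per class and population and divided by the class's total to give CPM. A comparison was drawn within a population where it held at least 20 cells of both classes. Fold calls, intervals and alternatives were computed with Python 3.11.15, numpy 2.4.6, scipy 1.17.1, pandas 2.3.3 and scanpy 1.11.5, and checked on simulated counts. Every gene of the set is named or counted; of the 4 further lists (79 genes, Pfkfb4 on 2 of them), the 3 called genes with the largest ratio in each direction are. The genes, lists and gates were chosen with earlier results of these data known. Alternatives were stricter gates, kept doublets, a stricter hashtag rule, 2 other scalings, a filter at 10 UMIs, each population left out, cycling cells left out, equal weights for populations, other cuts of the HIF split and other thinning draws. Intervals cover counting error only, and a class is as precise as its UMIs allow.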

Additional observations from a re-analysis of the deposited data

Results flagged for a closer look

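For 2 genes the counting intervals of single populations lay on opposite sides of 1 in the same comparison, with ratios of at least 1.5-fold both ways, and the difference between populations was not tested. Egln1, the main oxygen-sensing prolyl hydroxylase, had a ratio of Tregs over naive CD4 T cells of 1.78 in population 3 and 0.315 in population 9, and 1.19 pooled. Slc16a3 had a ratio of cycling over non-cycling activated CD8 T cells of 2.03 in population 7 and 0.328 in population 4, and 1.22 pooled.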

How the results depend on the processing

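Of 181 recomputed counts of called genes, 174 lay within 1.5 times the reported one. Of 4453 recomputed values of single genes under 24 settings, 4051 kept their call or, where not called, stayed within their counting interval, 341 of genes not called moved out of it, 61 lost their call and 0 called values changed direction. With 1 population left out at a time, the count ranged from 21 to 25 for activated against naive CD8 T cells (22 with all), 5 to 9 for macrophages against monocytes (7), 13 to 15 for Tregs (13), 10 to 12 for macrophages against activated CD8 T cells (10), 0 to 3 for cycling activated CD8 T cells (1), 2 to 3 for cycling macrophages (3), 13 to 14 for germinal centre B cells (13), and 7 to 11, 12 to 14 and 6 to 7 for the HIF split of macrophages (10), monocytes (14) and activated CD8 T cells (6). Alternatives chosen after seeing the data gave 2 genes for cycling activated CD8 T cells with populations weighted equally, 7 for germinal centre B cells with cycling cells left out, and 13 for the HIF split of activated CD8 T cells at 4 UMIs; at 2 UMIs, a planned cut, it gave 10. The causes were not tested. Equal weights gave no value for activated against naive CD8 T cells, nor did leaving out population 7 for the HIF split of monocytes. The pooled fold calls do not use the pairing of classes within populations, and no paired test was run. Ratios within the populations that hold both classes stand beside the pooled ones. Genes with few UMIs, such as Vegfa in T cells, are limited by depth.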

Other observations

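Vegfa was also counted in NK cells, at 173, 169 and 141 CPM in populations 1, 4 and 7, against 2.75, 1.18 and 5.37 CPM in activated CD8 T cells of the same populations. Pooled, it stood at 161 CPM (147 to 176) in 490 NK cells and 2.68 CPM (1.70 to 4.03) in activated CD8 T cells. C1qa, the gauge of free macrophage RNA, was at 26.2 CPM in NK and 26.4 CPM in activated CD8 T cells. The part of free RNA in the Vegfa levels was not tested.

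Pfkfb3 stood at 545 CPM (483 to 613) in 81 migratory dendritic cells, against 147 CPM in monocytes. It was at 53.8 CPM (49.0 to 58.9) in activated CD8 T cells and 13.8 CPM (9.92 to 18.6) in NK cells. In migratory dendritic cells it was at 236 CPM or above in each of the 9 populations, although no population held 20 of these cells. Ndrg1 stood at 136 CPM (106 to 172) in the same dendritic cells, 97.3 CPM in monocytes and 25.3 CPM (22.1 to 28.9) in activated CD8 T cells. Bhlhe40 stood at 830 CPM (745 to 921) in 80 activated CD4 T cells and 792 CPM (761 to 824) in NK cells, and both intervals overlapped that of activated CD8 T cells (818 CPM, 799 to 838).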
